A study of Homo sapiens with 4 samples.

Results

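MAP kinases carry signals from growth factor and stress receptors to the nucleus. Receptors act through adaptors and RAS on the kinases RAF, MEK and ERK, and parallel branches end in the kinases p38 and JNK. Several inhibitors of the cascade are themselves transcribed when ERK is active, so they form a negative feedback loop: the dual-specificity phosphatases (DUSPs) remove the activating phosphates from MAP kinases, and the Sprouty and Spred proteins block the step between receptor, RAS and RAF. IER3, an early response gene, encodes a short-lived stress protein that is a substrate of ERK.

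The 10 genes described here, called feedback genes below, include IER3 as an early response gene. They are DUSP1, DUSP4, DUSP5, DUSP6, DUSP10, SPRY2, SPRY4, SPRED1, SPRED2 and IER3. They were chosen by symbol among the 37515 genes of a count table, and all 10 had a row. The choice was made with earlier results of these data known, so the genes were not tested as a set. The table holds RNA-seq counts of 4 libraries of Caco-2, a human colorectal carcinoma cell line used as a model of the intestinal epithelium. Cells were grown on transwell inserts for 15 days. In 2 libraries they were unstimulated and taken at 0 h, and in 2 they had received 60 ng/ml interferon γ (IFNγ) in the basal compartment for 3 h. The labels name no genetic change, and the sample titles carry WT. The comparison asks how IFNγ changes expression in these cells, but no medium-treated cells taken at 3 h were analysed here, so IFNγ and the 3 h that passed, with any handling at stimulation, cannot be told apart. The labels do not say whether the replicates were separate cultures, and p-values then measure only the spread between these samples. In bulk RNA, fewer cells of a type and less RNA per cell cannot be told apart either.

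The libraries held 7171455 to 10365346 counts. The check of the labels found 9 of 10 listed IFNγ response genes higher in the IFNγ libraries by the call rule given below. All 12 epithelial and enterocyte markers on the list, VIL1 and CDX2 among them, were expressed at levels that could be tested, with a summed level of 9369 and 10110 CPM (normalized counts per 1000000 counts of the library) in unstimulated and 11030 and 11540 CPM in IFNγ libraries. Of the 12, 4 rose (CDX2, called at a log2 fold change of 1.20, KRT8, KRT18 and ALPI) and SI, the gene of sucrase-isomaltase, was called lower (-1.13). Of 10 markers of leukocytes, fibroblasts and endothelium, 9 had a row, 4 were expressed at such levels and 0 rose or fell. These 4 summed to 195 and 101 CPM before and 177 and 130 CPM after IFNγ, most of it the collagen gene COL1A1, whereas PTPRC, CD68 and DCN had 0 counts in 3 of the 4 libraries. Whether the cells that express COL1A1 contribute to the results below was not tested. A gene is said to have risen or fallen where edgeR's quasi-likelihood test gave an adjusted p under 0.05. The adjustment was that of Benjamini-Hochberg, over the 14820 genes with enough counts. A gene is said to be called where its log2 fold change was above 1 or below -1 as well. Among all tested genes 9.02% rose, 11.0% fell, 2.88% were called higher and 4.40% were called lower.

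Most of the feedback genes were expressed at a higher level after 3 h of IFNγ. Of the 10 genes 9 had enough counts to be tested, and 8 of them rose, where 9.02% of all tested genes rose. Of these, 5 were called higher (DUSP4, DUSP5, DUSP6, SPRY4 and IER3), against 2.88% of all tested genes, and 0 were lower. DUSP4 is among them although it had enough counts only in the IFNγ libraries. With 10 counts required in every library, 8 feedback genes without DUSP4 were tested, 4 were called, and the 8 had a median of 1.00 on the log2 scale. The fitted log2 fold changes of the 9 genes ran from 0.59 to 2.30 with a median of 1.08, and the median over all tested genes was -0.01. In each of the 9 genes both IFNγ libraries lay above both unstimulated libraries, an arrangement found in 31.6% of all tested genes, and in 0 of them the reverse, which 30.8% of all tested genes had. The summed level of the 9 genes was 231 and 246 CPM in the unstimulated libraries and 558 and 658 CPM in the IFNγ libraries. Without replicate 2 of IFNγ the median was 0.85 and 3 genes were called (DUSP6, SPRY4 and IER3).

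**Figure D1:**
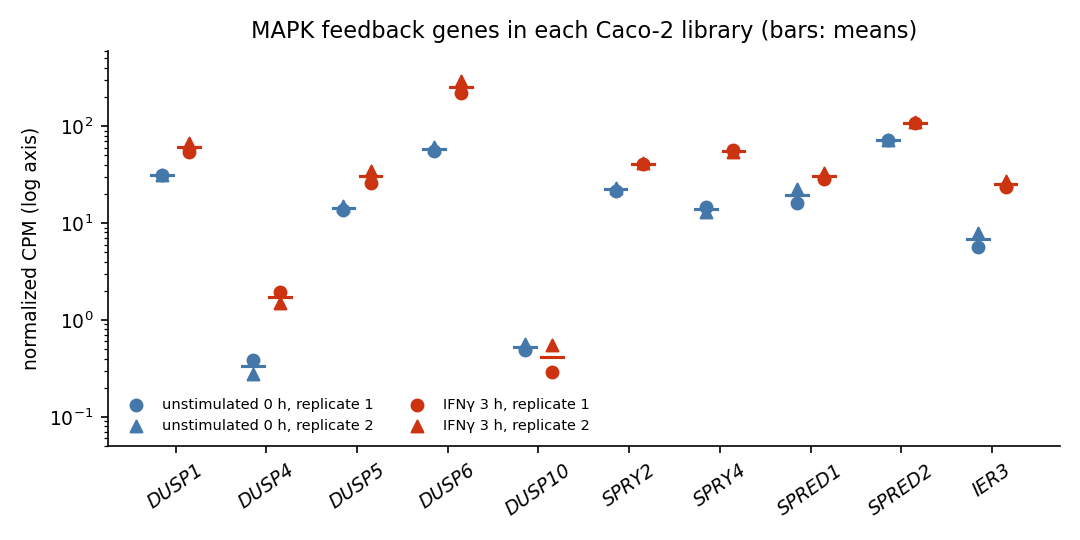
Normalized CPM on a log axis for each of the 10 feedback genes, with 1 point per library (blue, unstimulated 0 h; red, IFNγ 3 h; circles, replicate 1; triangles, replicate 2) and short bars at the mean of each condition. The red points lie above the blue ones in 9 genes, and those of DUSP10, all under 1 CPM, do not.

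DUSP6 encodes a cytoplasmic phosphatase that acts on ERK. Its gene (ENSG00000139318) occupies 89741012 to 89746278 on chromosome 12 of GRCh37, minus strand, where an unnamed gene on the other strand shares exonic sequence. DUSP6 had 55.8 and 60.7 CPM in the unstimulated libraries and 219.5 and 290.4 CPM in the IFNγ libraries. The groups were far apart, and the IFNγ libraries differed more from each other than the unstimulated ones. The unstimulated mean was 58.2 ± 3.44 CPM (SD, n = 2) and the IFNγ mean 254.9 ± 50.1 CPM (SD, n = 2), a 4.38-fold increase (log2 fold change 2.13 ± 0.161 SE, edgeR adjusted p = 0.000658). Taken by replicate number, the log2 fold changes of DUSP6 were 1.97 (replicate 1) and 2.25 (replicate 2). By size it ranked 91 among the 14820 tested genes, from the highest.

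SPRY4 encodes a Sprouty protein, an inhibitor of the RAS-ERK cascade downstream of receptor tyrosine kinases (ENSG00000187678, GRCh37 chromosome 5, minus strand, 141689992 to 141706020). It had 14.8 and 13.0 CPM in unstimulated cells and 56.5 and 54.0 CPM after IFNγ. The libraries of each condition were close together and the conditions were far apart. The change was 3.95-fold (log2 fold change 1.98 ± 0.148 SE, edgeR adjusted p = 0.000633). SPRY2, the other Sprouty gene of the set (ENSG00000136158, chromosome 13, minus strand, 80910111 to 80915261), had 21.3 and 23.1 CPM before and 40.7 and 41.5 CPM after IFNγ. It also rose, with a log2 fold change of 0.89 (SE 0.140, edgeR adjusted p = 0.00612), under the fold change threshold.

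DUSP1 and DUSP5 encode nuclear phosphatases that are induced early after stimulation. DUSP1 acts on p38, JNK and ERK, and DUSP5 on ERK. DUSP1 (ENSG00000120129, chromosome 5, minus strand, 172195099 to 172198198) had 31.5 and 31.4 CPM in unstimulated cells and 54.5 and 66.5 CPM after IFNγ. The unstimulated libraries were almost equal, and the gap to the nearer IFNγ library was larger than that between the IFNγ libraries. Its log2 fold change was 0.94 (SE 0.148, edgeR adjusted p = 0.00612), under the fold change threshold. Without replicate 1 of IFNγ it was 1.07, and DUSP1 was then called. DUSP5 (ENSG00000138166, chromosome 10, plus strand, 112257665 to 112271291) had 13.6 and 15.0 CPM before and 25.8 and 34.8 CPM after. Its log2 fold change of 1.08 (SE 0.194, edgeR adjusted p = 0.00955) lay just past the fold change threshold. It still rose, but was no longer called, without replicate 2 of IFNγ (0.83) or after removal of a GC and length trend across genes (0.87).

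The windows around the transcription start sites of DUSP6 and SPRY4, the 2 feedback genes with the smallest adjusted p-values, are shown. That of DUSP1, which held the most motif matches of the 3, is shown with them. All 3 are RefSeq windows of GRCh38.p14 from 250 bases before to 50 bases after a start site. They are read 5′ to 3′ on the strand of the gene. Capitals mark matches on either strand to any of the motifs named after the sequences. DUSP6 is at chr12:89352452-89352751, SPRY4 at chr5:142324198-142324497 and DUSP1 at chr5:172771146-172771445, all on the minus strand.
DUSP6: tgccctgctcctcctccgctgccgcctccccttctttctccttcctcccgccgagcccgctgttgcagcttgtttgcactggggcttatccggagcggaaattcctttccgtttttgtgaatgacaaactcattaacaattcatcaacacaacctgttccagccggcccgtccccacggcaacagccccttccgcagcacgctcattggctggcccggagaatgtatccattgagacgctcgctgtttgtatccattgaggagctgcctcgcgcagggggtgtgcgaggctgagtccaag
SPRY4: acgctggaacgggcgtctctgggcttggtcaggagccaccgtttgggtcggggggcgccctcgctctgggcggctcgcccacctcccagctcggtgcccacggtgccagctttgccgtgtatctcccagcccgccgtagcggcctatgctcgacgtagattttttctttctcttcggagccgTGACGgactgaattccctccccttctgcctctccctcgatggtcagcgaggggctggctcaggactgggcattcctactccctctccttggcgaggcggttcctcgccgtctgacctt
DUSP1: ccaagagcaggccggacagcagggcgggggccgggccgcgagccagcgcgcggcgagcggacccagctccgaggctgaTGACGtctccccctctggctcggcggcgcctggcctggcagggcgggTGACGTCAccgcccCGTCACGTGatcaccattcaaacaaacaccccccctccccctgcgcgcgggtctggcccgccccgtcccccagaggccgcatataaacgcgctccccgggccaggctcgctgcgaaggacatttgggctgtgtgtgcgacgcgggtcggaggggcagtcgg

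The motifs were the cAMP response element (CRE) TGACGTCA, its shorter core TGACG, the AP-1 motif TGANTCA, the ETS motif CCGGAA, the IRF and NFκB motifs, the E-box CACGTG and the CArG box of serum response factor. A CRE contains the core TGACG on both strands. In DUSP1 the full CRE began 125 bases before the start site and the core matched 4 times, 2 of them within the CRE, and one match overlapped an E-box. The core matched once in SPRY4, and none of these motifs matched in DUSP6. The table held 11 windows for 7 of the 10 feedback genes (none for DUSP4, DUSP5 and IER3), and the core matched in 5 of the 11 windows. The full CRE and the E-box each matched in 1 of the 11 windows, that of DUSP1. Among all 35116 RefSeq windows of this length, 24.6% held the core, 1.85% the full CRE and 7.26% the E-box. The IRF, NFκB and CArG motifs matched in 0 of the 11 windows, and in 3.57%, 1.61% and 1.29% of all windows. The AP-1 motif matched in SPRED2 and the ETS motif in SPRY2, and these motifs matched in 7.71% and 17.2% of all windows. These matches describe letters in 300 bases and do not show a site in use.

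IER3 (ENSG00000137331, chromosome 6, minus strand, 30710976 to 30712325) had 5.65 and 7.99 CPM in unstimulated cells and 23.4 and 27.0 CPM after IFNγ. The lower IFNγ library was still well above the higher unstimulated one. IER3 rose 3.74-fold (log2 fold change 1.90 ± 0.216 SE, edgeR adjusted p = 0.00229). Its exons overlap the antisense genes IER3-AS1 and HCG20, which had at most 6 counts in any library, and the strand setting of the counting is not known.

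The Spred genes encode membrane proteins related to Sprouty that recruit neurofibromin, the product of NF1, to switch off RAS. SPRED2 (ENSG00000198369, chromosome 2, minus strand, 65537985 to 65659771) had 72.2 and 71.6 CPM before and 106.7 and 109.4 CPM after IFNγ. Within each condition the libraries were nearly equal, and SPRED2 rose by a log2 fold change of 0.59 (SE 0.112, edgeR adjusted p = 0.0119). SPRED1 (ENSG00000166068, chromosome 15, plus strand, 38545037 to 38649450) had 16.0 and 22.7 CPM before and 28.8 and 32.9 CPM after. The groups did not overlap, but the unstimulated libraries were unequal and the test was missed (log2 fold change 0.68 ± 0.200 SE, edgeR adjusted p = 0.0514). SPRED1 is the feedback gene with the lowest GC content, 36.3%, and genes within 2 percentage points of it had a median log2 fold change of -0.48. With the trend of GC content and length removed it had a log2 fold change of 1.27 and was called (edgeR adjusted p = 0.00602).

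DUSP4, which encodes another nuclear phosphatase, and DUSP10, whose product acts on p38 and JNK, were hardly expressed. DUSP4 (ENSG00000120875, chromosome 8, minus strand, 29190581 to 29208201) had 4 and 2 counts before and 20 and 11 counts after IFNγ. It had more than 10 counts only in the IFNγ libraries, so it entered the test through the condition in which it was higher. The ratio of the summed and scaled counts was 5.11 (exact 95% Poisson interval 2.10 to 14.97, which covers counting error only), with a fitted log2 fold change of 2.30 (SE 0.536, edgeR adjusted p = 0.0244). The call was lost with any of the 4 libraries left out, with log2 fold changes of 2.57 and 2.14 without unstimulated replicates 1 and 2 and of 2.07 and 2.44 without IFNγ replicates 1 and 2, and DESeq2 gave no adjusted p-value. DUSP10 (ENSG00000143507, chromosome 1, minus strand, 221874766 to 221915431) had 5 and 4 counts before and 3 and 4 after IFNγ. Its ratio was 0.769 (exact 95% Poisson interval 0.243 to 2.32), so a change was not detectable at this depth.

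Levels of different genes can be compared per kilobase of exon (RPKM, here the normalized CPM divided by the annotated exon length in kilobases). Among the 10 feedback genes in unstimulated cells, DUSP1 (mean 15.6 RPKM) and DUSP6 (15.1) stood highest, followed by SPRED2 (13.1), SPRY2 (6.92), DUSP5 (5.65), IER3 (5.05), SPRED1 (2.50), SPRY4 (2.12), DUSP10 (0.185) and DUSP4 (0.0460). The values of DUSP1 and DUSP6 overlapped between libraries, as did those of DUSP5 and IER3 and those of SPRED1 and SPRY4. After IFNγ the order by mean RPKM was DUSP6 (66.1), DUSP1 (30.03), SPRED2 (19.6), IER3 (18.7), SPRY2 (12.8), DUSP5 (11.95), SPRY4 (8.43), SPRED1 (3.98), DUSP4 (0.237) and DUSP10 (0.148). SPRED2 and IER3 overlapped, and so did SPRY2 and DUSP5. DUSP6 thus stood alone at the top, with 56.9 and 75.2 RPKM against 27.1 and 33.0 for DUSP1.

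Genes that encode the same kind of protein did not all behave in this way. Of the other 5 MAP kinase phosphatase genes all were tested, and 2 rose and 0 fell. Among all tested genes 9.02% rose, 11.0% fell and 2.88% were called higher. DUSP2, which encodes a nuclear phosphatase like DUSP1, DUSP4 and DUSP5, was called, with 2.43 and 5.60 CPM before and 11.1 and 13.6 CPM after IFNγ (log2 fold change 1.66 ± 0.369 SE, edgeR adjusted p = 0.0204). Its unstimulated libraries were unequal, and the log2 fold change was 1.13 without unstimulated replicate 1 and 2.35 without unstimulated replicate 2. DUSP7, which acts on ERK in the cytoplasm as DUSP6 does, had a log2 fold change of 0.74 (edgeR adjusted p = 0.02, and 0.0508 with the GC and length trend removed). DUSP9, the third gene of that cytoplasmic group, had 24.4 and 24.8 CPM before and 22.5 and 27.0 CPM after, and its log2 fold change of 0.00 changed sign between scalings. DUSP8 and DUSP16, which like DUSP10 act mainly on JNK and p38, had log2 fold changes of -0.04 and -0.23 (edgeR adjusted p = 0.906 and 0.201). The median over the 5 genes was 0.00.

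**Figure D2:**
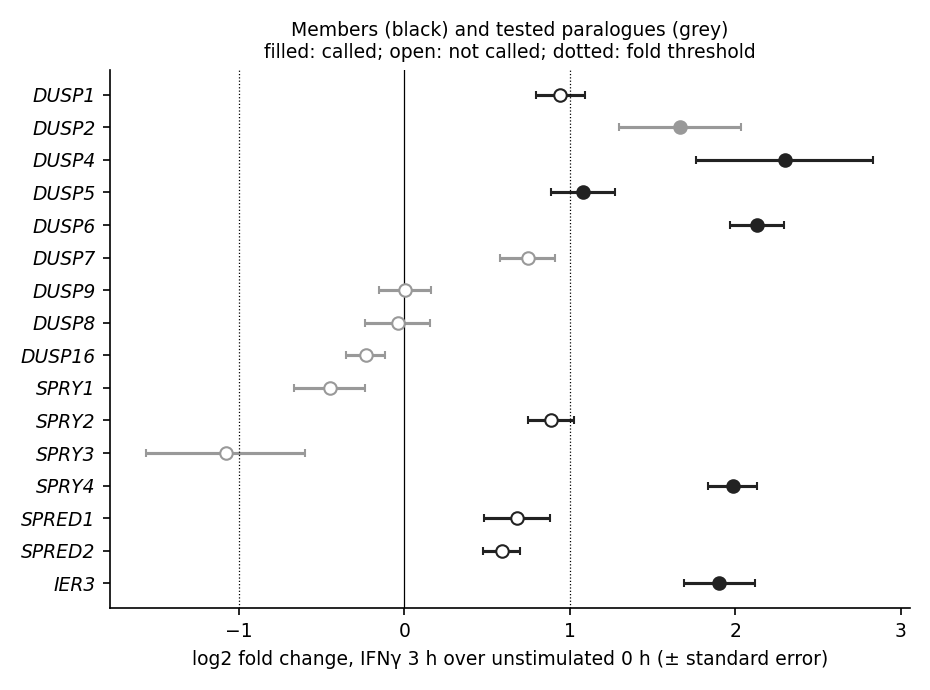
Log2 fold change of IFNγ 3 h over unstimulated 0 h, with its standard error, for the tested feedback genes (black) and their tested paralogues (grey). Filled points were called, open points were not, and dotted lines mark the fold change threshold. DUSP2, DUSP4, DUSP5, DUSP6, SPRY4 and IER3 lie past it with a filled point, whereas DUSP8 and DUSP9 lie at -0.04 and 0.00.

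SPRY1 and SPRY3, the other Sprouty genes, had negative log2 fold changes that did not pass the test. SPRY1 had 14.4 and 15.6 CPM in unstimulated cells and 9.24 and 12.8 CPM after IFNγ (log2 fold change -0.45, edgeR adjusted p = 0.178). SPRY3 had 2.43 and 1.54 CPM before and 1.17 and 0.682 CPM after (log2 fold change -1.08, edgeR adjusted p = 0.156). SPRED3 had at most 8 counts in any library and was not tested.

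The makeup of the phosphatase and Sprouty families differed between the conditions, and that of the Spred family overlapped. Summed over the 10 MAP kinase phosphatase genes, the level was 72.4 and 76.8 RPKM in unstimulated cells and 132.8 and 165.5 RPKM after IFNγ. DUSP6 supplied 20% and 20.5% of this sum before and 42.8% and 45.5% after. DUSP16 supplied 27.4% and 28.7% before and 13.0% and 11.1% after. The level of DUSP16 itself was 19.8 and 22.1 RPKM before and 17.2 and 18.4 RPKM after, and its change did not pass the test. The ratio of DUSP6 to DUSP16 was 0.729 and 0.713 in the unstimulated libraries and 3.31 and 4.09 in the IFNγ libraries. Within the Sprouty family the share of SPRY4 was 17.7% and 15.0% before and 36.3% and 33.7% after, while SPRY2 kept 52.0% to 54.3% in every library. SPRED2 supplied 81.5% to 85.7% of the Spred sum, and its ratio to SPRED1 overlapped between the conditions (6.36 and 4.44 before, 5.22 and 4.69 after). These shares rest on exon lengths from GENCODE 44 and were not tested, since 2 libraries a condition are too few for an exact permutation test to pass.

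**Figure D3:**
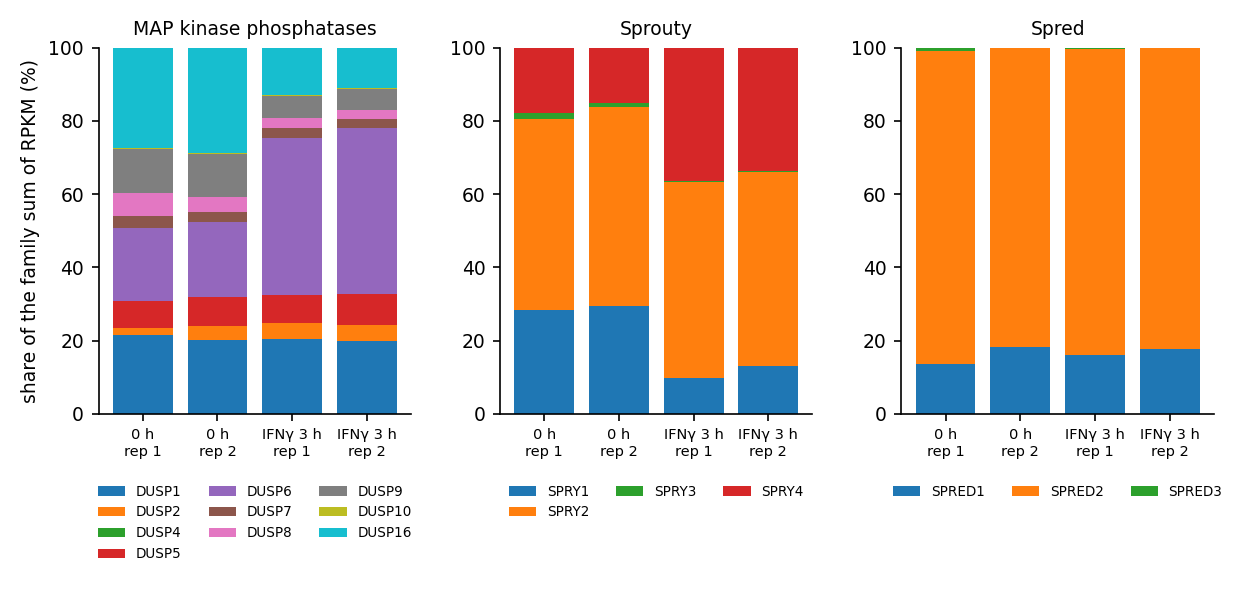
Share of each gene in the summed RPKM of the MAP kinase phosphatase, Sprouty and Spred families, in percent, with 1 stacked bar per library. The DUSP6 segment is 20% and 20.5% in the unstimulated bars and 42.8% and 45.5% in the IFNγ bars, and SPRY4 goes from 17.7% and 15.0% to 36.3% and 33.7%.

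A list of 11 early response and ERK target genes was written with earlier results of these data known. Most of these genes moved in the direction of the feedback genes. ERK activity was not measured, and whether it lay behind these changes was not tested. All 11 were tested, 7 rose and 0 fell, where 9.02% of all tested genes rose and 11.0% fell. The median log2 fold change of the 11 was 1.26. The called genes included FOSL1, a subunit of the AP-1 transcription factor, with 1.56 and 1.40 CPM before and 10.1 and 14.7 CPM after IFNγ (log2 fold change 3.04). MYC went from 50.2 and 66.0 to 386.8 and 459.1 CPM (2.87), the zinc finger factor EGR1 from 26.4 and 29.8 to 163.1 and 196.5 CPM (2.68), and the ephrin receptor EPHA2 from 20.6 and 21.3 to 87.4 and 121.0 CPM (2.31). CCND1 and PHLDA1 were also called, and IER2 rose under the fold change threshold. Exons of MYC, CCND1, PHLDA1 and IER2 overlap those of genes on the other strand. ETV4, ETV5 and EPHA4 had log2 fold changes of 0.31, 0.31 and -0.29 (edgeR adjusted p = 0.164, 0.417 and 0.187). FOS, the first of the early genes, stood at 34.3 and 30.4 CPM before and 21.2 and 24.0 CPM after IFNγ (log2 fold change -0.52, edgeR adjusted p = 0.0523). With the GC and length trend removed FOS fell (-0.69, adjusted p = 0.0177) and IER2 no longer passed.

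Transcripts of the ERK cascade moved in both directions. Of 23 genes from the adaptors to the kinases downstream of ERK 22 were tested, 1 rose (SHC1) and 5 fell, with a median log2 fold change of -0.11. Over all tested genes 9.02% rose and 11.0% fell, and 4.40% were called lower. BRAF was the 1 called gene, with 84.9 and 78.2 CPM before and 38.3 and 30.7 CPM after IFNγ (log2 fold change -1.24, edgeR adjusted p = 0.00287). Its exons overlap those of NDUFB2 and of an unnamed gene on the other strand. MAPK3, which encodes the kinase ERK1, had a log2 fold change of 0.25 (edgeR adjusted p = 0.166). The other genes that fell were PTPN11, SOS1, SOS2 and RPS6KA3, from -0.56 to -0.83. Exons of PTPN11 overlap those of RPL6 on the other strand. Exons of SHC1 and SOS1 overlap those of PYGO2 and SOS1-IT1 on the same strand. MKNK2, a kinase activated by ERK, had -0.13 (edgeR adjusted p = 0.427). The 5 genes that fell have a GC content of 39.5% to 41.5%, and across the 14518 tested genes with a known sequence the log2 fold change rose with GC content (Spearman rho = 0.431, across genes, which are not independent replicates). With the trend of GC content and length removed BRAF had a log2 fold change of -0.78 (edgeR adjusted p = 0.00581) and was no longer called. In that fit SOS2 still fell (-0.49), PTPN11, SOS1 and RPS6KA3 no longer passed the test, SHC1 still rose (0.58), and NRAS, which had missed the test, rose (0.52).

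**Figure D4:**
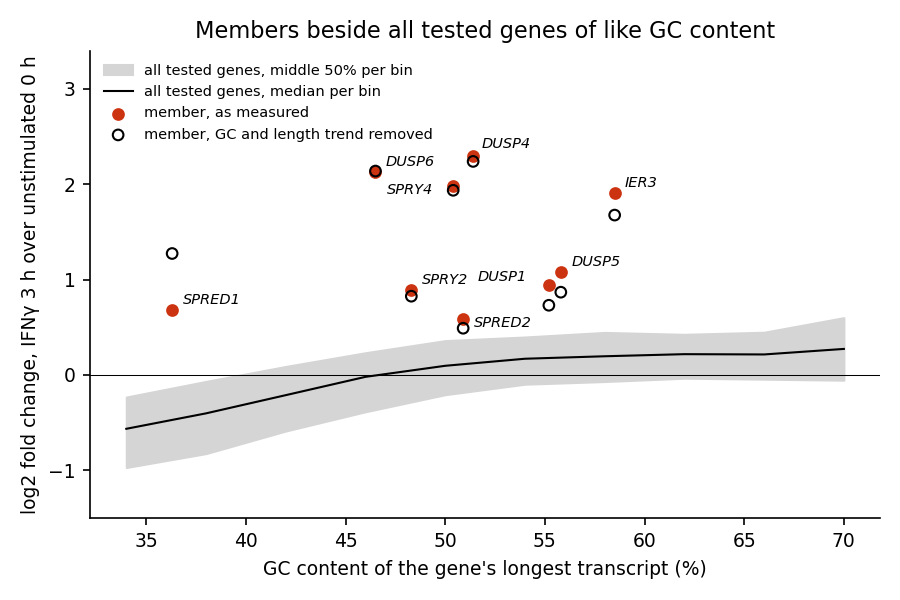
Log2 fold change against the GC content of the longest transcript in percent, for the 9 tested feedback genes as measured (red) and with the trend of GC content and length removed (open circles), and for all tested genes in bins (line, median; band, middle 50%). The feedback genes lie above the band both ways, and SPRED1 moves most between them, from 0.68 to 1.27. The line and band show values as measured, so the open circles have no background with the trend removed beside them.

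Other inhibitors of RAS and ERK signaling moved in both directions. Of 14 listed genes, the remaining Sprouty and Spred genes included, 12 were tested, 1 rose (ERF, a repressor controlled by ERK) and 3 fell (RASA1, NF1 and RASAL2), with a median log2 fold change of -0.38. Over all tested genes 9.02% rose and 11.0% fell. The 3 encode GTPase-activating proteins, which switch RAS off. RASA1 had 45.2 and 39.7 CPM before and 24.0 and 15.0 CPM after IFNγ (log2 fold change -1.11, edgeR adjusted p = 0.0144). It still fell, but was no longer called, without replicate 2 of IFNγ (-0.84) or with the GC and length trend removed (-0.94). NF1, the partner of the Spred proteins, had 200.1 and 180.6 CPM before and 116.9 and 93.9 CPM after (log2 fold change -0.85, edgeR adjusted p = 0.00721), and -1.03, past the threshold, without replicate 1 of IFNγ. With the GC and length trend removed its log2 fold change was -0.38 (edgeR adjusted p = 0.042). In that fit RASAL2 and ERF no longer passed (-0.11 and 0.24), whereas RASA2 and ERRFI1, which had missed the test, rose (1.09 and 0.73), which left 2 genes that rose and 2 that fell. PEBP1, which encodes a RAF inhibitor, had a log2 fold change of 0.10 (edgeR adjusted p = 0.555). Exons of RASA1, NF1, RASAL2 and ERRFI1 overlap those of genes on the other strand. Those of ERF overlap an unnamed gene on the same strand.

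In the branches that lead to p38, JNK and ERK5 all 23 listed genes were tested, and 5 rose and 4 fell around a median of -0.11 on the log2 scale. The shares over all tested genes were 9.02% that rose and 11.0% that fell, with 2.88% called higher. MAPK7, which encodes ERK5, was the 1 called gene, with 24.0 and 22.7 CPM before and 55.4 and 51.0 CPM after IFNγ (log2 fold change 1.19, edgeR adjusted p = 0.00245). Its exons overlap those of B9D1 and MFAP4 on the other strand. Of the genes that rose or fell here, MAP3K2, MAP3K4 and MAPK13 also have exons that overlap genes on the other strand. MAP3K11 and MAPKAPK2, a kinase that acts downstream of p38, rose by log2 fold changes of 0.68 and 0.77, under the threshold. With the GC and length trend removed MAPK7 remained called (1.01), while 4 of the other genes, MAP2K3, MAPK13, MAP3K2 and MAP3K7, no longer passed. The JNK genes MAPK8 and MAPK9 had log2 fold changes of 0.03 and -0.27 (edgeR adjusted p = 0.919 and 0.141). Transcripts of the kinases say nothing about their activity, which was not measured.

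**Figure D5:**
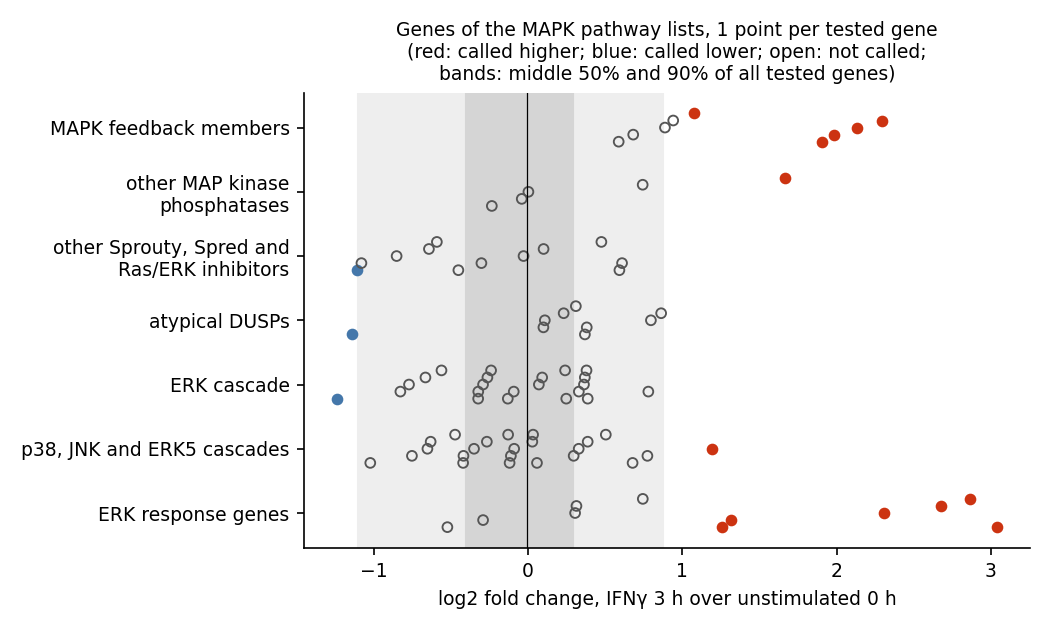
Log2 fold change of each tested gene in the MAPK pathway lists, with 1 point per gene (red, called higher; blue, called lower; open, not called) over the middle 50% and 90% of all tested genes (bands). The feedback genes all lie above 0.58, the ERK response genes reach 3.04, and the cascades are spread around 0.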

How the data were processed

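RNA-seq of Caco-2 cells was analyzed in 4 libraries. The deposited table holds, for every Ensembl gene and library, whole-number counts that the authors had not normalized or pooled. Per the labels, RNA was isolated with the mirVana kit and libraries were made with the TruSeq RNA kit. The submitters' processing notes name HISAT 0.5.1 and HTSeq 0.6.1p1. The build, annotation and strand setting of the counting are not given in the sources used here. Symbols were paired with 96.5% of identifiers, and positions, exon lengths and GC content came from GENCODE 44 mapped to GRCh37, promoter windows from RefSeq (GRCh38.p14).

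Counts were tested with edgeR 4.0.16 (R 4.3.3) with TMM scaling, its default low-count filter and an unblocked design, and p-values were adjusted over all 14820 tested genes. Standard errors (SE) were obtained by dividing log2 fold changes by √F. Pair values used a prior count of 2. Alternatives were other scalings, DESeq2 1.42.0, other filters and thresholds, the replicate block, each library left out, and a loess fit removing the trend of GC content and length. DUSP14 and PECAM1 were not analysed here. Some listed genes and a motif are not reported here. The genes and lists were chosen with earlier results of these data known. All feedback genes and their paralogues are named, with up to 4 called genes and the 2 highest uncalled genes of each list. Other genes named were chosen after their values were seen. At 7171455 to 10365346 counts per library, 1 CPM is 7.17 to 10.4 counts.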

Additional observations from a re-analysis of the deposited data

How the results depend on the processing

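The 9 feedback genes tested in the report had positive log2 fold changes under every alternative in which they were tested (DUSP10, tested only without a filter, did not pass), and DUSP6, SPRY4 and IER3 were called under each. Feedback genes that rose numbered 6 to 9 across the fits, with 9 under upper quartile scaling, the replicate block, no filter, or a removed GC and length trend, 7 with DESeq2, and 6 without unstimulated replicate 1, where DUSP4, SPRED1 and SPRED2 did not pass. Feedback genes called higher (5) were 3 to 5 with a library left out and 8 with no fold change threshold. Their median (1.08) was 0.85 to 1.28 with a library left out (0.85 without IFNγ replicate 2, 1.28 without IFNγ replicate 1) and 1.28 with the GC trend removed and the replicate block. With a library left out, the lone library is assumed to vary like the other group, and without IFNγ replicate 2 or without a filter edgeR let no gene have a spread of its own.

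Over all genes, 427 were called higher and 652 lower. With no fold change threshold these were 1337 and 1626. Genes called lower were 554 to 1112 with a library left out (1112 without IFNγ replicate 1), 307 with the GC trend removed and 382 at an adjusted p under 0.01. With no fold change threshold the counts were 2 higher for the other MAP kinase phosphatases, 1 higher and 3 lower for the other inhibitors, 1 higher for the atypical DUSPs, 1 higher and 5 lower for the ERK cascade, and 5 higher and 4 lower for the p38, JNK and ERK5 branches. With the GC trend removed, with or without the block, 0 genes were called lower among the other inhibitors, the atypical DUSPs and the ERK cascade, and 1 inhibitor was called higher. At an adjusted p under 0.01 there were 0 called among the other MAP kinase phosphatases, and 0 called lower among the inhibitors and atypical DUSPs, and DESeq2 called 0 atypical DUSPs lower. With a library left out, 0 to 2 inhibitors and 0 to 1 atypical DUSPs were called lower, and 0 to 1 atypical DUSPs higher.

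The sign of DUSP9 (0.00) turned to -0.0025 with DESeq2 size factors, -0.041 with library size only, -0.0012 with DESeq2, -0.0026 with 10 or more counts demanded of each library, -0.0047 with the replicate block, and -0.25 and -0.26 with the GC trend removed without and with the block, and with a library left out it ran from -0.15 to 0.12. DUSP8 ran from -0.23 to 0.22 with a library left out, and PEBP1 was -0.033 with the GC trend removed, with or without the block. For each of these the cause was not tested. Libraries with the same replicate number deviated together (r = 0.415 over genes), but 2 pairs are too few to settle a pairing. With the replicate block 492 genes were called higher and 896 lower. DUSP4 and DUSP10 are limited by depth.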

Other observations

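The atypical DUSPs, small phosphatases that lack the kinase-binding domain of the MAP kinase phosphatases, share the phosphatase fold with them. Of the 11 listed genes 10 had a row and 9 were tested. Only DUSP18 rose (log2 fold change 0.86, edgeR adjusted p = 0.0394) and only DUSP19 fell, where 9.02% of all tested genes rose and 11.0% fell. The median log2 fold change of the 9 was 0.31. Exons of DUSP18 overlap those of genes on both strands, and exons of DUSP19 those of an unnamed gene on the other strand. DUSP19 had 8.47 and 7.42 CPM in unstimulated cells and 3.79 and 3.41 CPM after IFNγ, a log2 fold change of -1.14 (edgeR adjusted p = 0.0218). Its call was lost without unstimulated replicate 1 (-1.04), with DESeq2 (-1.15, adjusted p = 0.0668) and with the GC and length trend removed (-0.65), where DUSP18 did not pass either (adjusted p = 0.0618). DUSP3, the highest of the 9 in CPM, had a log2 fold change of 0.31 and an edgeR adjusted p of 0.0995, and DUSP11 had 0.38 and 0.176.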
